A study of Mus musculus with 40 samples.

Results

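Respiratory complex I genes were taken from the whole-brain arrays as all probes whose annotated gene symbol began with Nduf. The rule found 53 probes for 40 genes, of 25697 probes and 16593 gene symbols in the table. Of these, 33 genes (43 probes) encode subunits, 5 genes (8 probes) encode assembly factors, 1 probe belonged to Ndufa4, whose protein is now counted with complex IV, and 1 probe to Ndufs5-ps, which is annotated as a transcribed pseudogene. A probe was tested where it exceeded background on 20 or more of the 40 arrays, which kept 49 member probes for 39 genes (32 subunit genes and 5 assembly factors), and 48 of these probes were above background in every array. The probe of Ndufs1, the largest subunit of the enzyme, and 2 of the 3 probes of Ndufaf7 were above background in 0 of 40 arrays, and 1 of the 2 probes of Ndufb11 in 16. The subunit genes Ndufs5, Ndufa11 and Ndufb1 were not analysed here, nor were the subunits encoded by mitochondrial DNA.

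All animals were male C57BL/6J mice of 9 weeks, born to dams fed a high-fat (HF) or a low-fat (LF) diet from before mating until weaning, and given the HF or the LF diet thereafter. The 4 groups of 10 mice are written HF_HF, HF_LF, LF_HF and LF_LF, with the maternal diet first. Dams of the HF diet and of the LF diet filled 6 breeding cages each, and 5 of the 12 supplied both post-weaning diets, so that maternal diet was shared by all pups of a cage. One array was hybridised per mouse, and values are log2 fluorescence intensities.

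Complex I takes electrons from NADH and passes them to ubiquinone, and uses the energy released to pump protons across the inner mitochondrial membrane. Its N module holds the flavin and oxidises NADH, its Q module reduces ubiquinone, and its proximal and distal membrane arms carry the pumps together with accessory subunits, many of them named Ndufb in the distal arm. Assembly factors build these modules and leave the finished enzyme. Neurons depend heavily on oxidative phosphorylation, and defects of complex I genes are a known cause of the childhood encephalopathy Leigh syndrome.

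The transcription factors NRF1, GABP and ERR alpha are known to act at promoters of respiratory genes. Promoters from RefSeq (mouse build GRCm38.p6) were found for 36 of the 39 tested genes (38 entries), and the 250 bases before each gene start were searched on both strands for the letters GCGCATGC (NRF1), CCGGAAG (GABP and other ETS factors), AAGATGG (YY1) and AAGGTCA (ERR). The NRF1 letters were in 3 of the 38 member promoters (7.89%) and in 2.26% of 32851 promoters of the same length. The ETS letters were in 4 (10.5%, against 6.91% of all), the ERR letters in 2 (5.26%, against 4.08%), and the YY1 letters in 0, against 4.49%. The stretches below run 5′ to 3′ on the gene's strand through the 120 bases before the gene start, with the matched letters in capitals. They belong to Ndufaf4, Ndufs3 and Ndufb4, which had among the smallest p-values of all members, and to Ndufb7, a distal-arm gene with a small spread. In Ndufaf4 the NRF1 letters and their reverse complement overlap.
Ndufaf4 (chr4:24897963-24898082, plus strand, NRF1 letters): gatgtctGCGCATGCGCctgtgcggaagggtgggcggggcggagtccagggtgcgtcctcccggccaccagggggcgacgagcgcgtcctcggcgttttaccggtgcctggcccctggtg
Ndufs3 (chr2:90904722-90904841, minus strand, ETS letters): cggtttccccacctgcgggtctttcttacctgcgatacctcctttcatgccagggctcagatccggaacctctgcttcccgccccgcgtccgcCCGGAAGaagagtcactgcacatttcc
Ndufb4 (chr16:37654369-37654488, minus strand, ERR letters): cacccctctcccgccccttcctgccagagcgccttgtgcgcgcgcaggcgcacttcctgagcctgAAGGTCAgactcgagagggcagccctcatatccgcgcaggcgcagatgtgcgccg
Ndufb7 (chr8:83566638-83566757, plus strand, ETS letters): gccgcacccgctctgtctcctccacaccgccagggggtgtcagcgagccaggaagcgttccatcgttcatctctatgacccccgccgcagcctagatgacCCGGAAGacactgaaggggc
A match of letters is a description of the sequence only.

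Across the series, pairs of arrays correlated at 0.922 to 0.996 (median 0.982). A low mean correlation with the others was found for 5 arrays (1 in HF_HF, 2 in HF_LF and 2 in LF_LF), and the counts of members at an unadjusted p under 0.05 are given without them where they changed. Markers of neurons (6 of 8 tested), oligodendrocytes (6 of 8), astrocytes (8 of 8), microglia (6 of 8) and endothelium (6 of 7) were above background, as were all 8 of the choroid plexus and 7 of 10 of striatal neurons. The neuronal markers Snap25 and Nefl were not. Of 4 markers each, 2 of liver, 1 of skeletal muscle, 1 of heart and 0 of pancreas were above background.

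No complex I gene differed between diet groups after adjustment over all probes, in any of the 4 pairwise comparisons, in the test of the diet interaction or along blood glucose (0 of 39 genes in each, limma with Benjamini-Hochberg adjustment). The same held for all 9926 genes tested, of which 0% passed in each of these limma tests. The paper, with a different test and expression filter, lists differing brain genes for each pairwise comparison except HF_LF against LF_LF. In every pairwise comparison the values of the groups overlapped for all 39 genes, a count that was not taken over the other genes. Standard errors (SE) of the log2 differences had a median of 0.0664 to 0.0726 over the members in the 4 comparisons, and 0.0728 to 0.0763 over all genes. In bulk tissue, fewer cells of a type and less RNA per cell cannot be told apart.

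**Figure D1:**
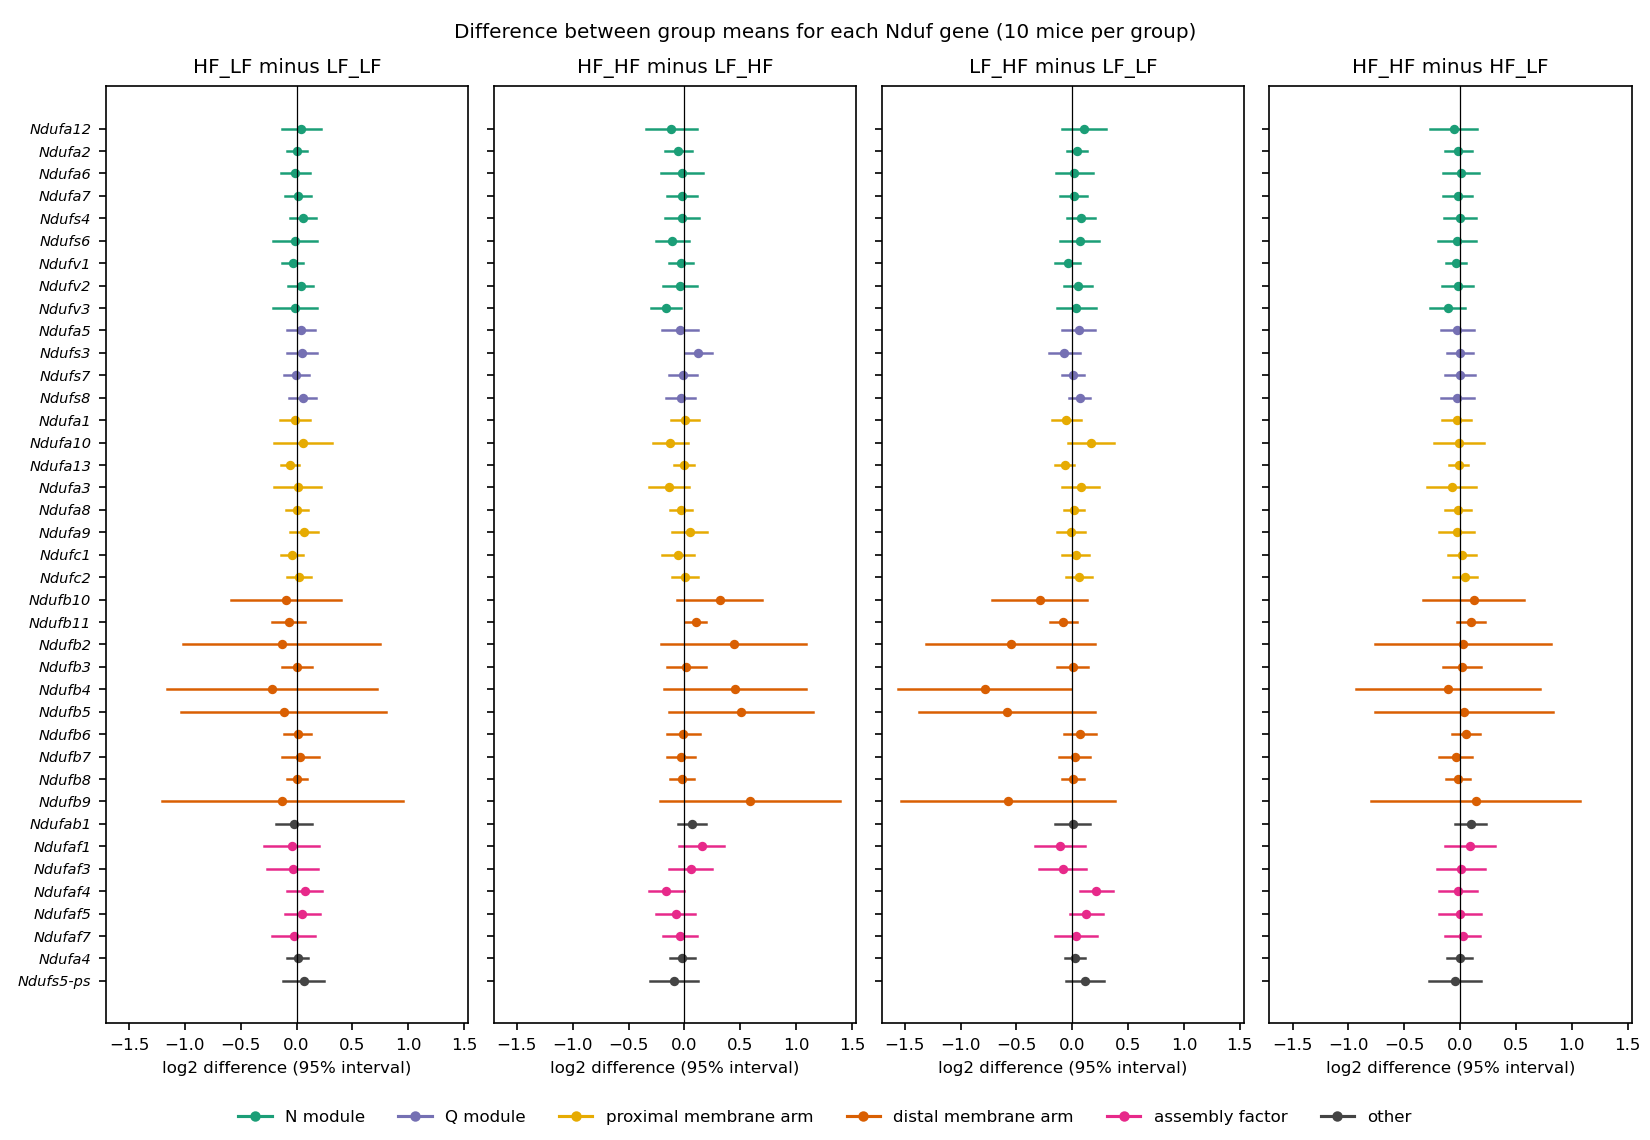
Difference in log2 intensity between the group means of each tested Nduf gene (1 probe per gene, points with 95% intervals, 10 mice per group) in the 4 pairwise comparisons, coloured by module. Most intervals are narrow and lie around 0, and 5 genes of the distal membrane arm have far wider ones.

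The effect of maternal diet among offspring fed HF was examined by setting HF_HF against LF_HF. Of the 39 genes, 2 were higher in HF_HF and 2 lower at an unadjusted p under 0.05, beside 1.1% of all genes higher and 3.54% lower (adjusted p = 0.853 for each of the 4). None of the 4 passed at this unadjusted level in a regularised t-test. Without the arrays of low correlation 1 was higher and 1 lower, Ndufb11 (0.10, limma p = 0.0405) and Ndufv3 (-0.13, limma p = 0.0439), while Ndufs3 differed by 0.12 (limma p = 0.0707) and Ndufaf4 by -0.16 (limma p = 0.068), each at an adjusted p of 0.999. The median difference of the subunits was -0.020 (12 higher, 20 lower), close to the -0.019 of all genes. The 95% interval lay within 1.2-fold either way for 27 of the 39 members, and for 6819 of all 9926 genes.

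Ndufv3, a small accessory subunit of the N module (probe ILMN_2668977, chromosome 17), measured 11.42 to 11.85 (median 11.77) in HF_HF, against 11.65 to 12.14 (median 11.87) in LF_HF. All 10 HF_HF mice lay below the mean of LF_HF, though the ranges overlapped. The difference was -0.16 (SE 0.07, 95% interval -0.30 to -0.03, limma p = 0.0203). The other bright probe of the gene (ILMN_3008277) gave -0.08, and a dim one (ILMN_2688822) gave 0.01.

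Ndufs3, a core subunit of the Q module (chromosome 2), measured 11.30 to 11.57 (median 11.41) in HF_HF and 11.02 to 11.63 (median 11.31) in LF_HF. The LF_HF mice spanned the whole range of the HF_HF mice, all 10 of which lay above the LF_HF mean. The difference was 0.13 (SE 0.06, limma p = 0.0444). Its promoter holds the ETS letters, as shown above.

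Ndufb11, an accessory subunit of the distal arm encoded on chromosome X, measured 6.56 to 6.94 (median 6.80) in HF_HF and 6.62 to 6.79 (median 6.69) in LF_HF, a difference of 0.10 (SE 0.05, limma p = 0.0343). This probe was dim, and 8 of 10 HF_HF mice lay above the LF_HF mean. Ndufaf4, an assembly factor of the Q module, measured 9.57 to 10.27 (median 9.98) in HF_HF and 9.91 to 10.31 (median 10.16) in LF_HF. Of the 10 HF_HF mice 7 lay below the mean of LF_HF, with a difference of -0.16 (SE 0.08, limma p = 0.0498).

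By module, the N module genes all pointed lower in HF_HF (0 higher, 9 lower, median -0.038), against 5921 of 9926 genes lower overall. This direction was kept without the arrays of low correlation (0 higher, 9 lower, median -0.036, beside -0.010 for all genes). It was lost with the first principal component of the compared arrays as a covariate (5 higher, 4 lower, median 0.013). In that fit the distal arm had 10 genes higher and 0 lower (median 0.078), beside a median of -0.0014 for all genes. The Q module then had 4 higher and 0 lower (median 0.024), and the proximal arm 6 higher and 2 lower (median 0.0081). With all arrays and no covariate, the largest N module differences after Ndufv3 were those of Ndufa12 (-0.12) and Ndufs6 (-0.11), a zinc-binding subunit. The Q module had 1 gene higher and 3 lower, and the proximal arm 3 higher and 5 lower. In the distal arm 7 genes were higher and 3 lower (median 0.21, up to 0.59 for Ndufb9). The 7 striatal markers were all lower in HF_HF (median -0.46, with a mean level over the list of 8.02 to 9.98 in HF_HF and 8.09 to 10.03 in LF_HF), 1 of them at an unadjusted p under 0.05, and both red cell markers were lower at that level. All 8 choroid plexus markers were higher (median 0.14, up to 0.99), and all 6 of microglia (median -0.090) and all 6 of oligodendrocytes (median -0.094) lower, none at that level. Their part in the differences of the complex I genes was not tested.

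**Figure D2:**
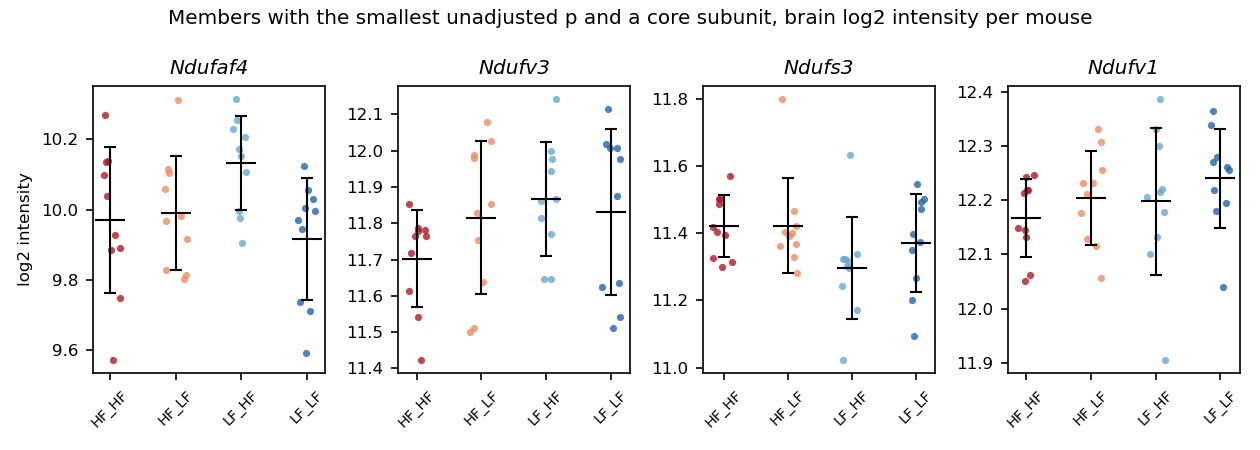
Log2 intensity of each mouse for Ndufaf4, Ndufv3 and Ndufs3, which had among the smallest p-values of the members, and for Ndufv1, a steady core subunit. Mice are shown by group, with group means and SD. Ndufv3 is lower and Ndufs3 higher in HF_HF than in LF_HF on average, Ndufaf4 is highest on average in LF_HF, and the groups overlap in every panel.

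Among offspring fed LF, maternal diet was examined in HF_LF against LF_LF. No member reached an unadjusted p under 0.05, beside 0.695% of all genes higher and 0.584% lower, and none did in the regularised t-test. The subunit median was 0.0035 (17 higher, 15 lower), and that of all genes -0.0011. Intervals within 1.2-fold were found for 31 of the 39 members and for 7179 of all 9926 genes. The smallest p among the members was that of Ndufa13, a proximal-arm subunit also known as GRIM-19, at 13.51 to 13.69 (median 13.66) in HF_LF and 13.52 to 13.80 (median 13.71) in LF_LF. The ranges overlapped, with 9 of 10 HF_LF mice below the LF_LF mean and every HF_LF mouse below the LF_LF median, a difference of -0.06 (SE 0.04, limma p = 0.143, adjusted p = 1). Without the arrays of low correlation 1 member had an unadjusted p under 0.05, Ndufs8, a core subunit of the Q module, with a difference of 0.10 (limma p = 0.0373, adjusted p = 1). All 8 choroid plexus markers (median -0.31) and all 6 of oligodendrocytes (median -0.076) were lower in HF_LF, none at an unadjusted p under 0.05, and their part in these values was not tested.

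The effect of the post-weaning diet in offspring of LF dams was taken from LF_HF against LF_LF. One gene was higher and 1 lower at an unadjusted p under 0.05, beside 4.39% of all genes higher and 1.32% lower, and the regularised t-test gave the same counts. Ndufaf4 measured 9.91 to 10.31 (median 10.16) in LF_HF and 9.59 to 10.12 (median 9.98) in LF_LF. Of the 10 LF_HF mice 9 lay above the LF_LF mean, and the upper part of the LF_LF range overlapped the lower part of LF_HF. The difference was 0.21 (SE 0.07, 95% interval 0.07 to 0.36, limma p = 0.00573, adjusted p = 0.717). It was 0.19 without the arrays of low correlation and 0.09 when compared within cages, which rests on the 2 LF cages that supplied both diets.

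Ndufb4, an accessory subunit of the distal arm, measured 7.02 to 8.87 (median 7.54) in LF_HF and 7.09 to 10.19 (median 7.92) in LF_LF. A few LF_LF mice stood far above the others, and 9 of the 10 LF_HF mice lay below the LF_LF mean. The difference was -0.79 (SE 0.37, limma p = 0.0469, adjusted p = 0.717). It was -0.40 without the arrays of low correlation, -0.36 without cage 4 and -1.16 without cage 11. Ndufaf4 was the only member at an unadjusted p under 0.05 without the arrays of low correlation (limma p = 0.00979, adjusted p = 0.999).

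The subunit median in this comparison was 0.013 (21 higher, 11 lower), and that of all genes 0.027. The N module had 8 genes higher and 1 lower (median 0.041), the Q module 3 and 1, the proximal arm 5 and 3, and the distal arm 4 and 6 (median -0.19), beside 6190 of 9926 genes higher overall. The N module count was 4 higher and 5 lower with the first component of the compared arrays as a covariate (median -0.025), and 5 and 4 without the arrays of low correlation (median 0.010). Ndufa10, a proximal-arm subunit, was at 11.79 to 12.06 (median 11.93) in LF_HF and 11.16 to 12.26 (median 11.82) in LF_LF, with all 10 LF_HF mice above the LF_LF mean (difference 0.17, SE 0.10, limma p = 0.1, adjusted p = 0.717). It was 0.06 without the arrays of low correlation. For 27 of the 39 members and 6524 of all 9926 genes, the interval lay within 1.2-fold. The 6 microglial markers were all higher in LF_HF (median 0.18, mean level 8.75 to 9.11 in LF_HF and 8.36 to 8.97 in LF_LF), 4 of them at an unadjusted p under 0.05, and the 8 choroid plexus markers were all lower (median -0.43, mean level 6.52 to 9.23 in LF_HF and 6.78 to 9.16 in LF_LF), as were all 6 of oligodendrocytes (median -0.099). Their part in the member values was not tested.

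In offspring of HF dams, HF_HF was set against HF_LF. No member reached an unadjusted p under 0.05, beside 0.725% of all genes higher and 0.544% lower, and none did in the regularised t-test. The subunit median was -0.016 (11 higher, 21 lower), and that of all genes 0.0042. Intervals within 1.2-fold were found for 29 of 39 members and 7198 of 9926 genes. Of the N module, 1 gene was higher and 8 were lower (median -0.023), led by Ndufv3 at 11.42 to 11.85 (median 11.77) in HF_HF and 11.50 to 12.08 (median 11.84) in HF_LF. The groups overlapped, with 9 of 10 HF_HF mice below the HF_LF mean of Ndufv3 (difference -0.11, SE 0.08, limma p = 0.158, adjusted p = 1). Without the arrays of low correlation 2 members had an unadjusted p under 0.05, Ndufv3 at -0.16 (limma p = 0.0202) and Ndufb11 at 0.14 (limma p = 0.0428, adjusted p = 0.999 for both). All 7 striatal markers (median -0.46), all 6 of oligodendrocytes (median -0.15) and both of red cells were lower in HF_HF, all 6 of microglia were higher (median 0.095), and their part was not tested. The comparisons that share a group are not independent of each other.

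The interaction asked whether the post-weaning difference depended on the maternal diet, over all 40 arrays. At an unadjusted p under 0.05 were Ndufaf4 and Ndufb11, 2 of 39 genes, beside 0.866% of all genes, and none in the regularised t-test. The post-weaning difference of Ndufaf4 was -0.02 in offspring of HF dams and 0.21 in those of LF dams, so that the interaction was -0.23 (SE 0.11, limma p = 0.0362, adjusted p = 0.998). For Ndufb11 the differences were 0.09 and -0.08, with an interaction of 0.17 (SE 0.08, limma p = 0.0424, adjusted p = 0.998). Blood glucose, taken within groups, gave 0 of 39 members at an unadjusted p under 0.05, beside 2.46% of all genes, and 0 in the regularised t-test. All 9 N module genes had a positive slope (median 0.037 per 50 mg/dl), beside 5873 of 9926 genes overall (median 0.0090), the steepest being 0.08 for Ndufv3 (SE 0.04, limma p = 0.0833, adjusted p = 0.995). Without the arrays of low correlation all 9 slopes stayed positive, with a smaller median (0.021, beside 0.0018 for all genes). With the first component of the arrays as a covariate 8 were positive and 1 negative (median 0.017, beside 0.0024 for all genes). With all arrays and no covariate, all 7 striatal markers had a negative slope (median -0.10) and all 6 of oligodendrocytes a positive one (median 0.042), and their part was not tested.

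Core subunits encoded in the nucleus carry the flavin, the iron-sulphur clusters and the ubiquinone site, and 5 were tested. Ndufv1, the NADH-binding flavoprotein, was among the steadiest members, at 12.05 to 12.25 in HF_HF, 12.06 to 12.33 in HF_LF, 11.91 to 12.39 in LF_HF and 12.04 to 12.37 in LF_LF. Its differences ran from -0.04 to -0.03 in the 4 comparisons. Ndufv2, Ndufs7 and Ndufs8, which hold iron-sulphur clusters, differed by -0.04 to 0.06 with all arrays, with 95% intervals between -0.19 and 0.18. With all arrays, no comparison of these 4 genes reached an unadjusted p under 0.05 in limma. Without the arrays of low correlation, Ndufs8 differed by 0.10 in HF_LF against LF_LF (limma p = 0.0373), as given above.

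The other assembly factors showed small differences as well. Ndufaf1, part of the complex that builds the membrane arm, measured 9.58 to 10.31 (median 9.87) in HF_HF, 9.52 to 10.23 (median 9.73) in HF_LF, 9.52 to 10.05 (median 9.70) in LF_HF and 9.41 to 10.27 (median 9.80) in LF_LF. Its differences were -0.11 to 0.15. Ndufaf3, which acts together with Ndufaf4, differed by -0.09 to 0.06, and Ndufaf7, a methyltransferase, by -0.04 to 0.04. Ndufaf5, a hydroxylase of Ndufs7, differed by -0.08 to 0.13 on its brighter probe. The range over the 4 groups was wide for each factor next to these differences, and groups overlapped throughout. Ndufa4 differed by -0.02 to 0.03, and Ndufab1, the mitochondrial acyl carrier protein, which was above background in 26 of 40 arrays, by -0.02 to 0.09.

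Members varied unequally between mice of the same group. The within-group SD, pooled over the 4 groups, was over 0.4 for 5 of the 10 distal-arm genes and for none of the 9 in the N module, 4 in the Q module or 8 in the proximal arm. Over all members it was 5 of 39 genes (12.8%), and over all genes 7.08%. Ndufb9 had an SD of 1.11 and a 9.43-fold range over the 40 arrays, Ndufb4 0.939 and 8.98-fold, Ndufb5 0.929 and 8.00-fold, Ndufb2 0.907 and 6.06-fold, and Ndufb10 0.512 and 2.80-fold. All of these encode accessory subunits of the distal arm. Other genes of the same arm were steady, with an SD of 0.104 for Ndufb8, 0.131 for Ndufb11, 0.145 for Ndufb6, 0.151 for Ndufb7 and 0.169 for Ndufb3. The steadiest members were Ndufa13 (0.0806), Ndufv1 (0.0991), Ndufa8 (0.100), Ndufb8 (0.104) and Ndufa4 (0.106).

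**Figure D3:**
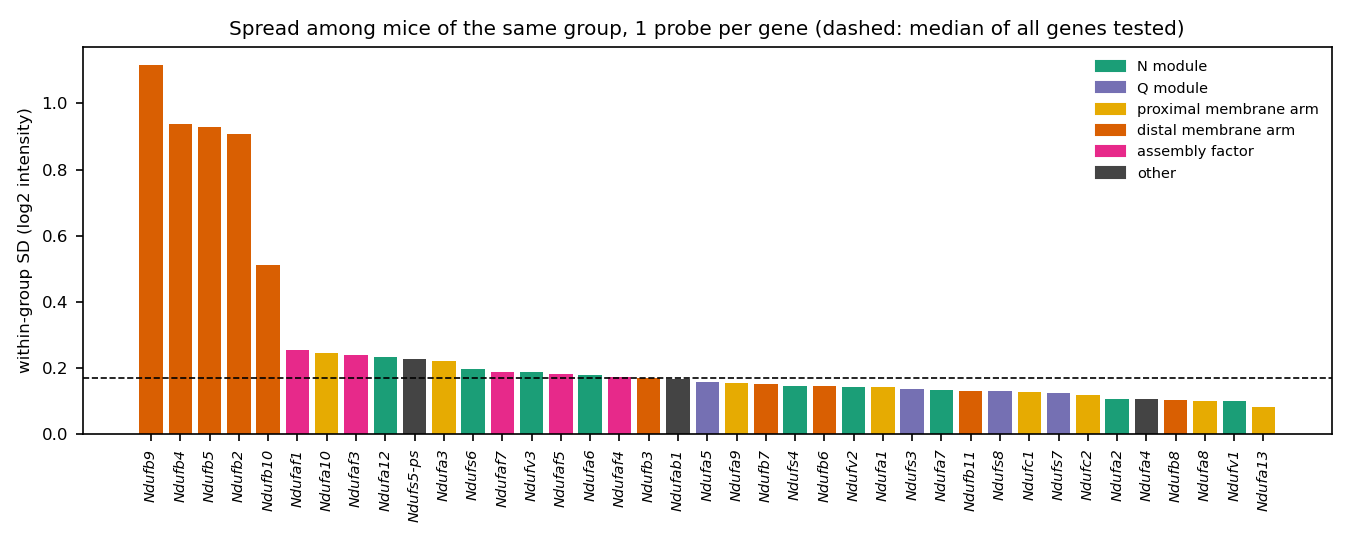
Within-group SD of log2 intensity for each tested member gene (1 probe per gene, 40 arrays), coloured by module, with the median of all genes tested as a dashed line. The 5 most variable genes, all of the distal arm, lie between 0.512 and 1.11, and all other members at or below 0.253.

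The wide spread of these distal-arm genes was found in each group, and was narrowest in LF_HF for all 5 (1.98-fold for Ndufb10 to 5.93-fold for Ndufb9). Ndufb9 measured 8.16 to 10.85 (median 8.88) in HF_HF, 8.00 to 10.76 (median 8.61) in HF_LF, 7.82 to 10.39 (median 8.32) in LF_HF and 7.75 to 10.98 (median 9.03) in LF_LF. In each group the median of Ndufb9 lay nearer the lowest mouse than the highest, least clearly so in LF_LF. Ndufb5 measured 8.56 to 11.12 (median 9.17) in HF_HF, 8.69 to 10.94 (median 8.98) in HF_LF, 8.50 to 10.42 (median 8.78) in LF_HF and 8.23 to 11.23 (median 9.33) in LF_LF. The differences between group means for these 5 genes ran as wide as -0.79 to 0.59, yet the SE was 0.18 to 0.52, so that only the Ndufb4 difference above reached an unadjusted p under 0.05.

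**Figure D4:**
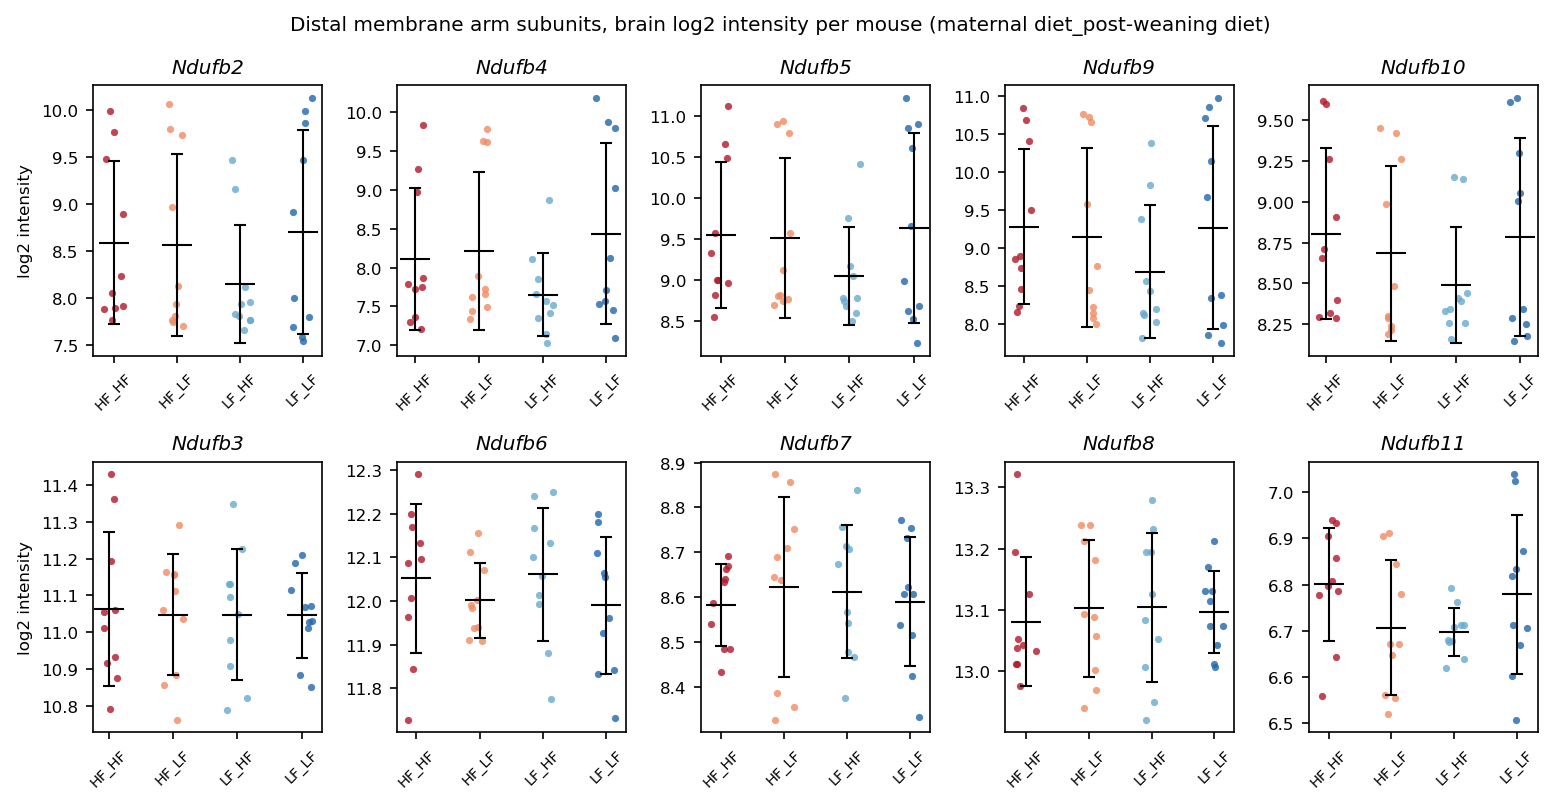
Log2 intensity of each mouse for genes of the distal membrane arm, by group, with group means and SD. Over the 40 arrays the 5 variable genes span 2.80- to 9.43-fold, and the others stay in a narrow band.

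The variable genes followed the dominant pattern of the arrays. The first principal component of the 40 arrays, taken over all tested probes, held 54.8% of the variance. The score used here was that of the first component computed again without the Nduf probes. The sign of the score was set so that it correlated positively with the subunit mean. Scores were above 0 for 15 arrays and below 0 for 25, with a gap between -0.321 and 0.397. The arrays above 0 numbered 4 of 10 in HF_HF, 4 in HF_LF, 2 in LF_HF and 5 in LF_LF, and 7 of the 12 cages had arrays on both sides. Because the arrays formed separate sets, correlations with the score were taken within each set (98 relations, permutation tests).

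Among the 15 arrays above 0, 13 of 49 member probes (26.5%) correlated with the score at over 0.7 and 4 (8.16%) at under -0.7, beside 8.13% and 7.9% of all probes. Among the 25 arrays below 0, the counts were 4 (8.16%) and 1 (2.04%), beside 2.06% and 0.272% of all probes. Several of these probes belong to the same gene. With 1 probe per gene, 7 of 39 genes (17.9%) were over 0.7 and 3 (7.69%) under -0.7 in the 15 arrays, beside 7.34% and 7.85% of all genes. In the 25 arrays they were 2 (5.13%) and 1 (2.56%), beside 1.91% and 0.332%. Ndufb9 correlated at r = 0.973 in the 15 arrays (rho = 0.871, 0.957 without the 2 farthest arrays, adjusted permutation p = 8.17e-05) and at r = 0.792 in the 25 (rho = 0.75, 0.691 without the 2 farthest, adjusted permutation p = 8.17e-05). The unadjusted p of both was 1e-05, the smallest these permutations can give. Ndufv3 ran the other way, at r = -0.885 in the 15 arrays (rho = -0.893, -0.853 without the 2 farthest, adjusted permutation p = 8.17e-05) and r = -0.791 in the 25 (rho = -0.82, -0.767 without the 2 farthest, adjusted permutation p = 8.17e-05). Ndufs6, also of the N module, reached r = -0.893 in the 15 arrays (rho = -0.946, -0.889 without the 2 farthest, adjusted permutation p = 0.00021) and r = -0.58 in the 25 (rho = -0.425, -0.457 without the 2 farthest, adjusted permutation p = 0.00864). Both directions thus occurred within complex I.

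With the first component of the 20 compared arrays, here computed over all tested probes, as a covariate, the highest SE of any member dropped to 0.106 to 0.131, against 0.387 to 0.518 without it. In LF_HF against LF_LF the difference of Ndufb2 was then 0.0040 in place of -0.55, that of Ndufb9 0.12 in place of -0.58, that of Ndufb4 -0.24 in place of -0.79 and that of Ndufaf4 0.15 in place of 0.21. In HF_HF against LF_HF, Ndufaf4 differed by -0.09 in place of -0.16 (limma p = 0.142) and Ndufv3 by -0.09 in place of -0.16 (limma p = 0.0386). Ndufs3 stayed at 0.13 (limma p = 0.0459) and Ndufb11 at 0.10 (limma p = 0.0512), and Ndufa9, an accessory subunit, was at 0.12 in place of 0.05 (limma p = 0.0297, adjusted p = 1 for all 5). No member passed the adjusted threshold in this fit either (0 of 39 in each comparison, smallest adjusted p = 0.946).

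Probes of the same gene did not always vary together. Several probes were tested for 7 genes, and in HF_HF against LF_HF the sign of the difference varied between probes in 6 of them (4 in HF_LF against LF_LF, 5 in LF_HF against LF_LF and 2 in HF_HF against HF_LF). Ndufs4, an N module subunit whose loss in mice gives a Leigh-like disease, had 4 probes. The brightest one (ILMN_1234521) had an SD of 0.145, and the others (ILMN_2663694, ILMN_2900025 and ILMN_2640944) had SDs of 0.810, 0.449 and 0.434. These 3 correlated with each other at r = 0.898 to 0.957 in the 15 arrays and 0.744 to 0.896 in the 25, and with the brightest probe at 0.0857 to 0.176 and 0.172 to 0.377 (28 relations of 14 probe pairs). Adjusted permutation p was at most 9.33e-05 among the 3 probes (rho = 0.717 to 0.943, r = 0.696 to 0.914 without the 2 farthest arrays) and at least 0.133 with the brightest.

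Ndufa5, a subunit of the Q module, had a steady probe (ILMN_1216007, SD 0.158) and a variable one (ILMN_2691460, SD 1.19, an 11.9-fold range), which correlated at 0.0393 in the 15 arrays and 0.121 in the 25 (rho = 0.0357 and 0.138, r = 0.292 and -0.0106 without the 2 farthest, adjusted permutation p = 0.887 and 0.682). In LF_HF against LF_LF the steady probe gave 0.06 and the variable one -0.84 (SE 0.47, limma p = 0.0898). Ndufaf5 likewise gave 0.13 on the probe ILMN_2747677 (SD 0.182) and -0.67 on ILMN_1216813 (SD 1.03). Thus 5 further member probes with an SD over 0.4 belonged to genes whose brighter probe was steady, and which transcript each probe detects was not tested.

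**Figure D5:**
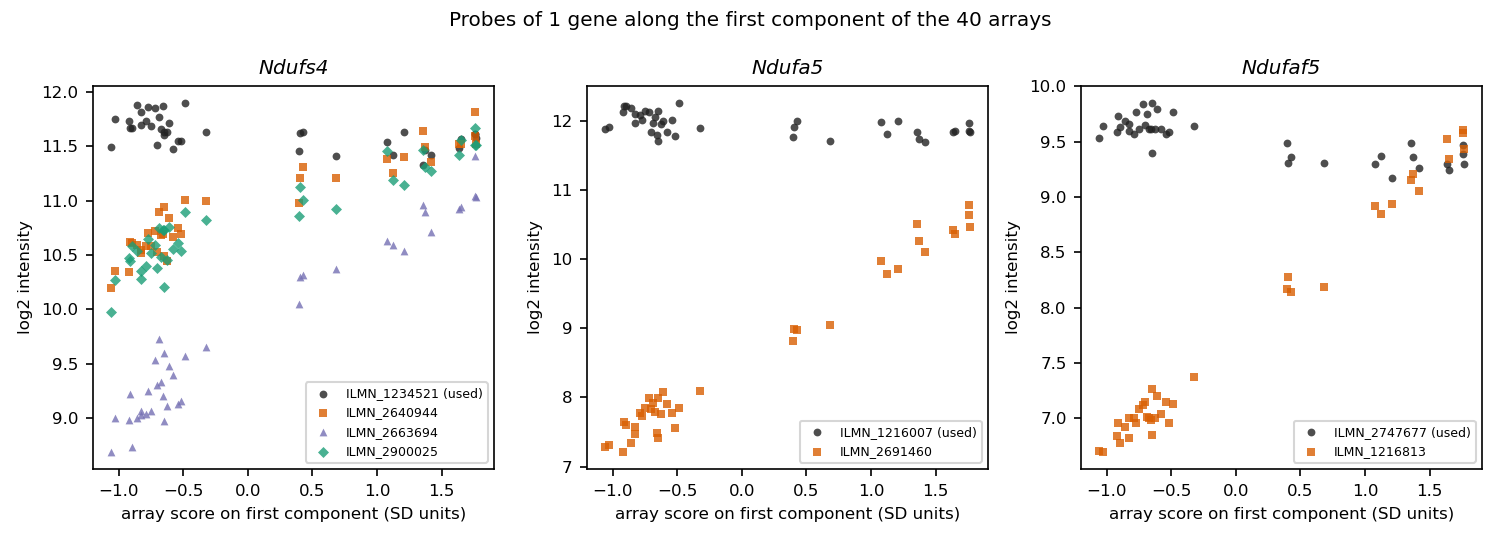
Log2 intensity of each probe of the named gene against the score of the array on the first component (SD units), 1 point per array (40 arrays). For Ndufs4, Ndufa5 and Ndufaf5 the probe used for the gene has the smaller spread (SD 0.145 to 0.182), and the others (SD 0.434 to 1.19) climb with the score.

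The genes most like complex I were sought by correlating each gene's deviations from its group means with those of the subunit mean over the 40 arrays, a description that spans both sets of arrays and uses a subunit mean that includes the 5 variable genes. The closest were Ppp1r14a (0.914), Aldh1a1 (0.91), Eef1e1 (0.908), Grb14 (0.908), Hcn2 (0.905), Eef1b2 (0.899), Cox20 (0.891), Inpp5f (0.889), Atp5h (0.889) and Mad2l2 (0.888). Of these, Cox20 encodes an assembly factor of complex IV and Atp5h a subunit of ATP synthase. The most opposed were Sec16a (-0.902), Abcb6 (-0.888), Atad3a (-0.862), Ctdnep1 (-0.862) and Rnf10 (-0.859). Within the 15 arrays these values were 0.769 to 0.94 for the first genes and -0.855 to -0.728 for the opposed ones, and within the 25 they were 0.662 to 0.874 and -0.83 to -0.642.

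The other respiratory complexes held variable genes too. Of 37 tested genes of complexes II to V, 8 had an SD over 0.4, with a median of 0.146 against 0.158 for the Nduf genes. Atp5a1, the catalytic-core alpha subunit of ATP synthase, had an SD of 1.24 and a range of 8.65 to 12.28, Sdhd, a membrane anchor of complex II, 0.96, Cycs, cytochrome c, 0.893, Uqcrb of complex III 0.864, Atp5e 0.86 and Cox7a2 of complex IV 0.694. These genes were picked for an SD over 0.4 and for their correlation with the component. The bounds were over 0.7 in the 15 arrays and over 0.4 in the 25. Their correlations, 0.92 to 0.978 and 0.484 to 0.748, thus follow from the choice. Across all 37 genes the median correlation was 0.252 in the 15 arrays and 0.079 in the 25. Over 0.7 were 9 (24.3%) and 2 (5.41%), beside 7.34% and 1.91% of all genes, and under -0.7 were 3 and 0. None of the 37 differed between diets after adjustment, and 0 had an unadjusted p under 0.05 in each pairwise comparison. Their medians were 0.011 in HF_HF against LF_HF, -0.0044 in HF_LF against LF_LF, -0.014 in LF_HF against LF_LF and -0.0185 in HF_HF against HF_LF.

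A further list held 13 tested genes taken to assist complex I assembly, among them Cox20, described above as an assembly factor of complex IV. Of these 13, Tmem70 alone had an unadjusted p under 0.05 in a pairwise comparison. Tmem70 averaged 8.48 ± 0.146 in LF_HF and 8.35 ± 0.116 in LF_LF (SD, n = 10 each), a difference of 0.13 (limma p = 0.0474, adjusted p = 0.717). Of 10 tested regulators of mitochondrial biogenesis, Ppargc1b, a coactivator of ERR alpha, averaged 9.42 ± 0.262 in HF_HF and 9.64 ± 0.16 in LF_HF, a difference of -0.22 (SE 0.09, limma p = 0.0286, adjusted p = 0.853). Gabpa, the DNA-binding subunit of GABP, averaged 6.58 ± 0.122 in LF_HF and 6.46 ± 0.114 in LF_LF, a difference of 0.12 (SE 0.05, limma p = 0.034, adjusted p = 0.717). No regulator had an SD over 0.4, the highest being 0.252.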

How the data were processed

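Whole-brain RNA of 40 mice was hybridised to Illumina MouseRef-8 v2.0 arrays. The deposited values were linear intensities that the authors exported from BeadStudio and quantile-normalised over the arrays, without background subtraction. They were log2-transformed. Background was the 95th percentile of 1362 chemosensory receptor probes per array (81.8 to 91.4), and probes above it in at least 20 arrays were tested (14350 probes, 9926 genes, the probe of highest mean for each). Groups were taken from the labels, and replicates were separate mice. Every mouse shared its cage with another mouse of the series, and each group came from 4 or 5 cages. The main tests took the mice as independent, although maternal diet did not vary within a cage. Arrays have no read depth, and their number limits the precision.

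Pairs of groups were compared in limma 3.58.1 (R 4.3.3, two-sided moderated statistic with trend, Benjamini-Hochberg over all probes). Correlations used 100000 permutations. Fits were tested on simulated data. Members and gene lists were chosen with earlier results of these data known. Genes were named by rule: the smallest p per comparison, core subunits, assembly factors, genes with discordant probes, extremes of SD, the genes most like the subunit mean, and the smallest p in other lists. Ndufa12, Ndufs6, Ndufb3, Ndufb6 and Ndufb7 were named after their values were seen. Atp5a1, Sdhd, Cycs, Uqcrb, Atp5e and Cox7a2 were picked by their SD and their correlation with the component. Alternatives covered normalisation, offset, filter, background, weights, arrays of low correlation, cage, model, test, component and probe rule. No alternative was added later.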

Additional observations from a re-analysis of the deposited data

Results flagged for a closer look

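Of 112 sets of 10 values (28 named member genes in 4 groups), 3 held a mouse far above the rest of its group, fewer than the about 1 in 20 that chance gives. For Ndufs3, a core subunit of the Q module, the highest HF_LF mouse measured 11.8 on the log2 scale and the next 11.47, and the highest LF_HF mouse measured 11.63 and the next 11.34. For Ndufs7, another Q module core subunit, the highest LF_HF mouse measured 12.34 and the next 12.12. No member had an interaction of the diets that passed the adjusted threshold (0 of 39 genes).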

How the results depend on the processing

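No member was called in any of the 6 tests under the 14 alternatives (0 of 38 to 40 member genes), nor without any 1 cage. The cage as a fixed block could be fitted only for the post-weaning diet. The median subunit difference ran from -0.036 to 0.024 across the alternatives and -0.054 to 0.018 without 1 cage in HF_HF against LF_HF, from -0.0053 to 0.034 and -0.017 to 0.023 in HF_LF against LF_LF, from -0.0088 to 0.024 and -0.012 to 0.032 in LF_HF against LF_LF, and from -0.046 to -0.014 and -0.048 to 0.0094 in HF_HF against HF_LF. Of the alternatives for the 30 single-gene values, 653 kept their direction and 1 turned it: Ndufaf5 in LF_HF against LF_LF was -0.27 as the mean of its 2 probes and 0.13 on its brighter probe, since the other probe gave -0.67. No paired analysis was possible because the labels number no replicates across groups. The 5 cages that supplied both diets served as blocks instead, with 0 of 39 members called. The precision of the variable distal-arm probes was limited by an SE of 0.18 to 0.52.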
